A study of Mus musculus with 8 samples.

Results

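A set of 7 separate 1 Mb windows of the mouse genome held many eCLIP peaks of ALKBH5 lacking its C-terminal disordered region and few of the full-length protein. They lie on chromosome 1 (171 to 172 Mb), chromosome 5 (117 to 118 and 134 to 135 Mb), chromosome 10 (117 to 118 Mb), chromosome 11 (51 to 52 and 115 to 116 Mb) and chromosome 15 (78 to 79 Mb), in GRCm39. The pairs on chromosomes 5 and 11 are called proximal and distal here. A peak was a member where its summit lay in a window, which gave 455 of the 72953 peaks in the 4 deposited lists. The windows had been picked from the numbers of peaks of each genotype, so these numbers, and every other difference between genotypes inside the windows, are a description and carry no test.

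The wild-type group was E14TG2a mouse embryonic stem cells with endogenous full-length ALKBH5. The other group was cells of the same line with the genotype Alkbh5 del-cIDR, in which the endogenous protein lacks that region. Cells of both groups grew with serum, LIF, PD0325901 and CHIR99021. They were irradiated at 254 nm with 400 mJ/cm2, and nuclei were isolated. Each genotype had 2 immunoprecipitates and 2 inputs. The analysis rests on 4 peak lists, 1 from each immunoprecipitate. Separate cultures behind the replicates are not mentioned in the labels, nor is it stated that the del-cIDR line is 1 clone.

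ALKBH5 is a nuclear enzyme that removes N6-methyladenosine, a mark on mRNA and other transcripts that influences their splicing, export and stability. Intrinsically disordered regions are stretches of protein with no stable fold that often help to decide which partners a protein meets. In eCLIP, UV light joins a protein to the RNA it touches, and a peak is a stretch where recovered RNA fragments pile up above the background of the peak caller. From the series title, the question was whether such regions restrain where demethylases act. A peak shows where fragments piled up, and it gives no amount of RNA. Whether RNA levels in the windows differed between the genotypes was not tested.

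The full-length lists held 34 and 25 members and the del-cIDR lists 195 and 201, which is 0.171%, 0.150%, 1.11% and 1.07% of each list. The means were 29.5 ± 6.36 and 198 ± 4.24 peaks (SD, n = 2 per genotype), a ratio of 6.71 with a range of 5.74 to 8.04 over the 4 pairings of libraries. In all 7 windows both del-cIDR counts lay above both full-length counts. Over the 2267 windows of the genome with at least 4 peaks, 34.8% did so, and 24.3% had both full-length counts above both del-cIDR counts. By limma, 17.8% of these windows had more del-cIDR peaks and 14.2% more full-length peaks at a Benjamini-Hochberg adjusted p under 0.05, or 404 and 323 windows. Without del-cIDR replicate 1 the numbers were 117 and 161, and without replicate 2 they were 105 and 168. Centring each library on its median window gave 279 and 334, so the order of the 2 directions is not settled. The median window of that set held 5 and 4 full-length and 5 and 5 del-cIDR peaks. Full-length ALKBH5 thus had 1 to 5 peaks in 6 of the windows, and 13 and 8 in the distal window of chromosome 11. Every del-cIDR count in the 7 windows was at least 15.

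**Figure D1:**
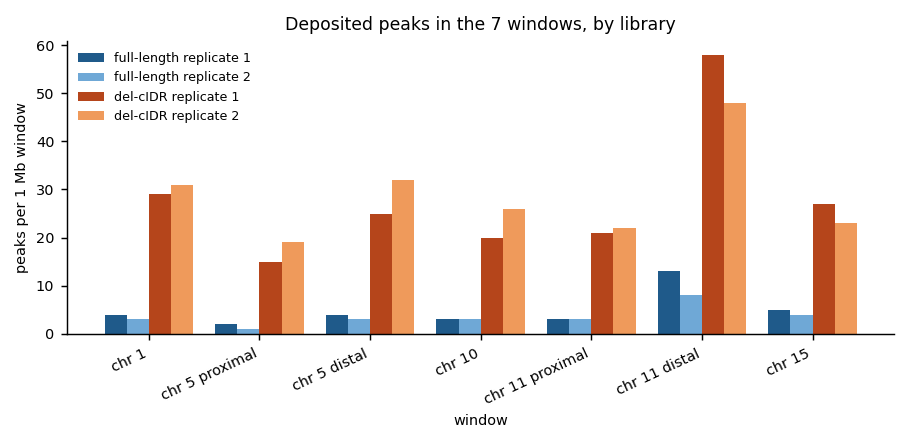
Bars give the number of deposited peaks (y axis, from 0) with a summit in each of the 7 windows (x axis), 1 bar per library. Del-cIDR bars reach from 15 to 58 peaks and full-length bars from 1 to 13, and in no window do the genotypes overlap.

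The windows differed in how many peaks they held. The distal window of chromosome 11 was the fullest, with 58 and 48 del-cIDR and 13 and 8 full-length peaks, and its ratio of means, 5.05, was the lowest of the 7. The proximal window of chromosome 5 was the emptiest, with 15 and 19 against 2 and 1, and its ratio, 11.3, was the highest. Chromosome 1 held 29 and 31 against 4 and 3, and the distal window of chromosome 5 held 25 and 32 against 4 and 3. Their ratios were 8.57 and 8.14. The full-length counts are so small that 1 peak more or less changes these ratios visibly. Chromosome 10 held 20 and 26 against 3 and 3, the proximal window of chromosome 11 held 21 and 22 against 3 and 3, and chromosome 15 held 27 and 23 against 5 and 4. The ratios there were 7.67, 7.17 and 5.56. Neither del-cIDR replicate was the higher one in every window, since replicate 1 led in the distal window of chromosome 11 and on chromosome 15 and replicate 2 in the other 5.

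The del-cIDR members were crowded into short stretches, most of which held peaks of both replicates. With del-cIDR summits up to 20 kb apart joined into clusters over both replicates, the windows held 65 clusters. Of these, 27 had at least 6 peaks, a minimum chosen after the lists were seen. These 27 held 311 of the 396 del-cIDR members, 78.5%, in 758 kb, which is 10.8% of the length of the windows. A site of both replicates counts here as a peak of each. No full-length peak lay in 12 of the 27, in windows picked to hold few such peaks. The share of such clusters over the genome was not computed. Within single libraries, 54.9% and 50.2% of the del-cIDR members lay in runs of at least 3 summits no more than 5 kb apart. Full-length members formed 1 such run, of 3 peaks, in the distal window of chromosome 11 of replicate 1. With 1 to 13 full-length peaks per window, by choice of the windows, few runs could form. In the same way, windows picked for many del-cIDR peaks bring del-cIDR summits close together. Shares in clusters or runs were not computed over the whole lists, so no trait of these members is read from them. Over the whole lists the median gap between neighbouring summits was shorter for full-length, at 8.48 and 7.75 kb, than for del-cIDR, at 27.5 and 22.2 kb. The median distance from a del-cIDR summit to the nearest summit of the other del-cIDR replicate was 163 and 173 bp, against 20.5 to 32.8 kb to the nearest summit of a full-length list. Over the whole lists the contrast was much the same, at 120 and 149 bp against 14.4 to 18.9 kb.

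**Figure D2:**
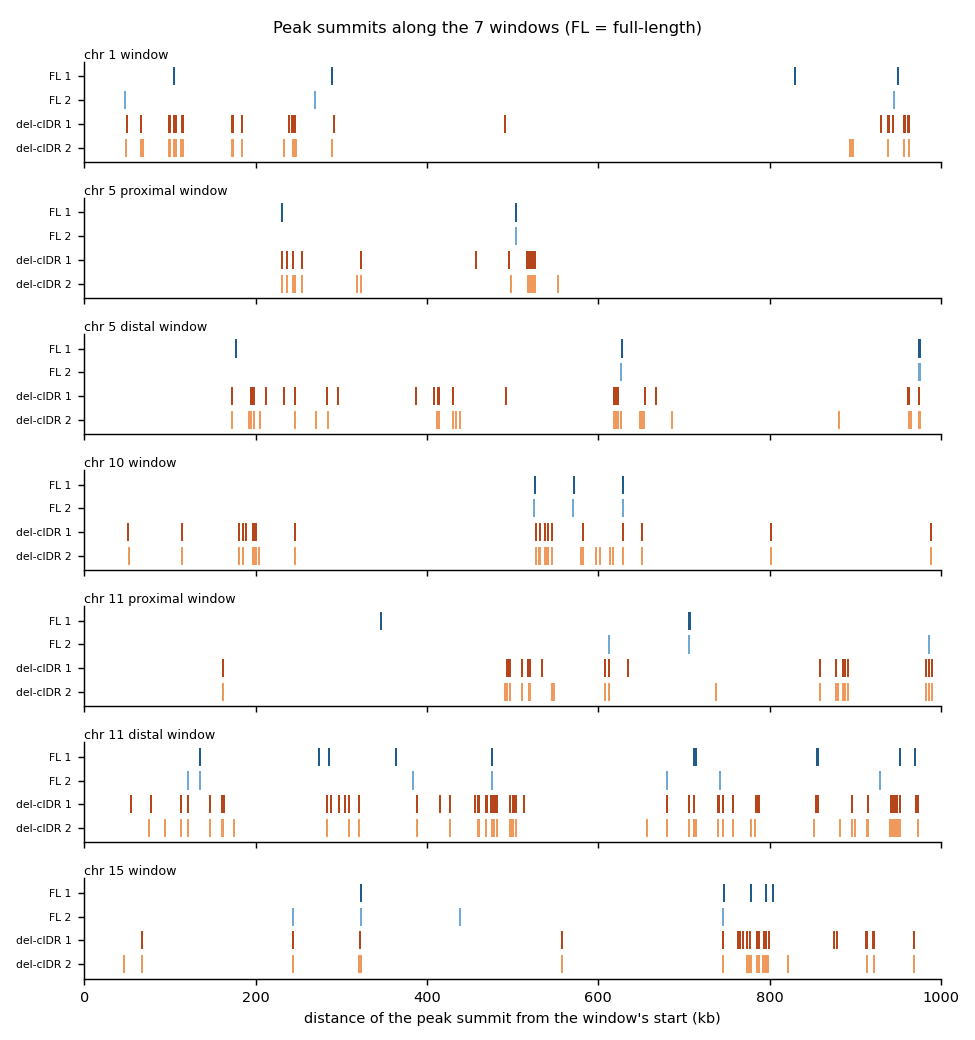
Each tick is the summit of a peak, placed by its distance in kb from the start of its window (x axis), with 1 row per library in each of the 7 panels. Del-cIDR ticks gather in a few places, most of them shared by both replicates, and long stretches of most windows hold no peak of any library.

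Most sites that both del-cIDR replicates shared had no full-length peak. Peaks of the 4 libraries that overlapped by at least 1 bp were merged, which gave 283 regions in the windows. Of these, 106 held a peak in both del-cIDR lists and in neither full-length list, 37.5% of the regions, against 17.7% of the 43029 regions of the whole genome. A further 130 held a peak in 1 del-cIDR list alone, 45.9% against 27.6% over the genome. In 1 full-length list alone there were 21, 7.42% against 25.2%, and in both full-length lists alone 3, 1.06% against 17.5%. Both genotypes met in 23 regions. Of these, 4 held all 4 libraries, 1.41% of the regions against 4.70% over the genome. Both del-cIDR lists and 1 full-length list met in 9, 3.18% against 3.14%. Both full-length lists and 1 del-cIDR list met in 3, 1.06% against 2.18%, and a single list of each in 7, 2.47% against 2.01%. Among the 119 regions that the del-cIDR replicates shared, 89.1% were free of full-length peaks, against 69.3% over the genome. The choice of windows shifts all these shares by itself, so nothing is read from the differences.

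**Figure D3:**
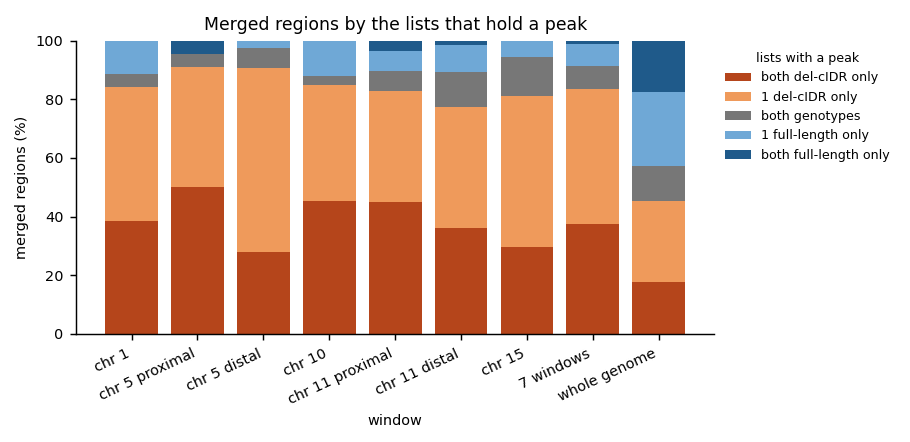
Stacked bars give the percent of merged regions (y axis) in each window by the lists that hold a peak there, beside all 7 windows together and the whole genome. Regions of both del-cIDR lists alone make up 27.9% to 50% of a window, and no window reaches 5% of regions in both full-length lists alone.

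Del-cIDR members lay on a peak of the other replicate about as often as peaks elsewhere, and full-length members did so less often. The share was 66.7% for del-cIDR replicate 1 and 62.2% for replicate 2, and over the whole lists it was 64.5% and 59.7%. Of the full-length members, 32.4% and 44.0% overlapped the other replicate, and over the whole lists 54.0% and 76.2% did. Windows picked by peak number can lower the full-length shares and raise the del-cIDR ones by themselves. Nothing is read from these replicate overlaps. Over both replicates, 32 of the 59 full-length members overlapped a del-cIDR peak, 22 overlapped a peak of the other full-length replicate, and 21 overlapped neither. This is 54.2% over a del-cIDR peak, where 22.8% of the whole full-length lists were. Of the del-cIDR members 9.60% overlapped a full-length peak, where 24.2% of the whole lists did. Windows picked for many del-cIDR and few full-length peaks raise the first share and lower the second by themselves, so nothing is read from either.

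The del-cIDR members were somewhat wider than their lists as a whole and less often strongly enriched. Their median width was 367 and 359 bp, against 325 and 331 bp over the whole lists. By window the medians ran from 330 to 409 bp in replicate 1 and from 318 to 397 bp in replicate 2. The 318 bp, on chromosome 10, lay below the median of its list. Peaks at the minimum width of their list made up 15.4% and 13.9% of the members, against 28.3% and 26.7% of the lists. A single peak of each del-cIDR library was 2 kb or wider, at 2092 and 2247 bp. The fold enrichments used here are the authors' own value for each peak and describe peaks within a list. The median fold was 2.99 and 2.95 for the members and 3.17 and 3.16 for the lists. A fold of at least 4 was given to 15.4% and 17.9% of the members, against 31.6% and 30.4% of the lists. By −log10 q, 47.2% and 47.3% of the members ranked above the median of their list, but few ranked near its top. The share above the median was 65% and 69.2% on chromosome 10. In the other windows it was 37.9% to 52.4% in replicate 1 and 40.6% to 47.8% in replicate 2. The best 10% of the lists held 3.08% and 4.48% of the members.

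Full-length members had lower median widths than their lists, and fewer of them ranked above the list median than below it. These members are few, in windows picked for few full-length peaks, so no trait is read from this. Their median width was 342 and 256 bp, against 379 and 291 bp over the whole lists. Only the distal window of chromosome 5 had both medians above those of the lists, at 517 and 444 bp. It held 4 and 3 full-length peaks, of which 50% and 66.7% ranked above the median of their list. None of the 34 and 25 members reached 1 kb, a width that 2293 of 19892 and 1007 of 16636 peaks of the full-length lists had. With so few members, nothing is read from this absence. Of all these members 17.6% and 40.0% ranked above the median of their list. None ranked among the first 1000, which are 5.03% and 6.01% of the lists. Among so few members, few or none would fall there at that share. The best rank was 2988, at chromosome 15 from 78243074 to 78243316 in replicate 2. Del-cIDR members among the first 1000 of their list numbered 4 and 4, which is 2.05% and 1.99% of the members, where the first 1000 are 5.69% and 5.31% of the lists.

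The regions of both del-cIDR lists alone were mostly broad, and the few narrow ones were the more enriched. Those no wider than 310 bp, a limit chosen after the widths were seen, numbered 13. They were 301 or 302 bp wide, which is about the smallest peak these lists hold, and are called narrow sites here. Their median fold, taken as the mean of both lists, was 6.28, and 10 of the 13 reached 4-fold in both lists. The other 93 were 585 bp wide at the median, with a median fold of 2.85, and 6 reached 4-fold in both lists. Narrow regions were the more enriched over the 7609 such regions of the genome too, with a median fold of 5.99 against 2.84 for the wider ones. Narrow sites made up 12.3% of these regions in the 7 windows and 32.6% in the genome, a difference that was described and not tested.

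**Figure D4:**
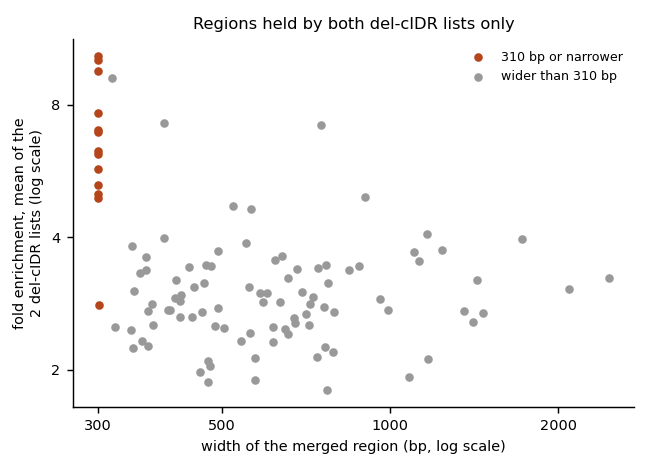
Each point is 1 of the 106 regions held by both del-cIDR lists alone, by its width in bp (x axis, log scale) and its fold enrichment as the mean of the 2 del-cIDR lists (y axis, log scale). The 13 regions of 310 bp or less stand at the left edge, between 2.80-fold and 10.3-fold, and the 93 wider ones lie between 1.80-fold and 9.21-fold with a median of 2.85-fold.

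On chromosome 1 the del-cIDR peaks lay in the first 300 kb and the last 200 kb of the window, with 1 peak between them. The fullest cluster ran from 171098087 to 171115383, a stretch of 17.3 kb in which full-length ALKBH5 had 1 peak and del-cIDR 9 and 11. Clusters from 171172283 to 171184624 and from 171232514 to 171247907 held 3 and 3 and 4 and 6 del-cIDR peaks, and no full-length peak lay in either. The latter contained the best ranked region of the window, from 171243515 to 171244268, at ranks 2062 and 1665 and enriched 6.76-fold and 7.65-fold. It also contained the widest, from 171245816 to 171247907, a single peak of 2092 bp in replicate 1 that met 3 peaks of replicate 2. Regions from 171173335 to 171173898 and from 171112744 to 171113646 followed, at 4.51-fold and 4.77-fold and at 4.24-fold and 5.64-fold.

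The replicates differed at the far end of the chromosome 1 window. Between 800 and 900 kb from its start, replicate 2 had 4 del-cIDR peaks and replicate 1 none, and in the last 100 kb replicate 1 had 9 and replicate 2 had 3. The 7 full-length peaks were scattered over the window, and no region held a peak in both full-length lists. All 17 regions shared by the del-cIDR replicates lacked a full-length peak, where 89.1% did over the 7 windows and 69.3% over the genome. In the other windows the share was 78.6% to 93.8%. The window was picked for few full-length peaks, so nothing is read from this.

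In the proximal window of chromosome 5, nearly all del-cIDR peaks lay in 2 clusters. The first ran from 117230030 to 117253992, with 5 and 7 peaks, and the second from 117495660 to 117526782, with 8 and 9. Together they held 85.3% of the del-cIDR peaks of the window, the highest such share of the 7 windows. The first cluster contained the 3 best ranked del-cIDR-only regions. The first lay from 117253223 to 117253992 and was enriched 3.84-fold and 3.06-fold. Next came 117236117 to 117236462, at 3.57-fold and 4.07-fold, and 117236660 to 117237375, at 2.84-fold and 2.22-fold. In the second cluster the peaks followed each other closely over a few kilobases, and the widest region, 1407 bp, ran from 117520020 to 117521426.

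The second cluster of that window also enclosed a full-length site. From 117503332 to 117503638 both full-length lists held a peak, at 3.52-fold and 4.45-fold, and neither del-cIDR list did. The 3rd full-length peak of the window, in replicate 1 from 117229946 to 117230279, overlapped peaks of both del-cIDR lists. A narrow del-cIDR site lay apart from the clusters, from 117322862 to 117323162, at 4.77-fold and 5.02-fold.

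The distal window of chromosome 5 had 5 smaller clusters of 8 to 10 del-cIDR peaks, and fewer of its replicate 2 peaks met one of replicate 1 than in the other windows. Of its regions 62.8% held a peak of 1 del-cIDR list alone, and 56.0% and 40.6% of the del-cIDR peaks overlapped the other replicate. The cluster from 134648574 to 134686417 showed this most, with 2 peaks of replicate 1 and 7 of replicate 2. The cluster from 134617840 to 134627398 held 5 and 5 del-cIDR peaks in 9.56 kb. Its region from 134617840 to 134619079, at 3.65-fold and 3.82-fold, was the widest of the window at 1240 bp. The best ranked del-cIDR-only region was a narrow site from 134171968 to 134172268, enriched 8.31-fold and 10.8-fold. The region from 134623009 to 134623477 came after these, at 3.20-fold and 3.71-fold.

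Of the 7 full-length peaks of this window, 6 overlapped a del-cIDR peak, where 22.8% of the whole full-length lists did, in a window picked for its many del-cIDR peaks. The full-length replicates shared 3 regions. One of them, from 134973812 to 134974456, held all 4 libraries at low enrichment, with 1.71-fold and 2.47-fold in full-length and 1.90-fold and 1.85-fold in del-cIDR lists. The adjoining full-length peaks, from 134974633 to 134975621 and from 134974864 to 134975622, measured 989 and 759 bp, and the former was the widest full-length member.

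Chromosome 10 carried 2 dense clusters with no full-length peak inside them. One ran from 117180393 to 117203720, with 6 and 6 del-cIDR peaks, and the other from 117526871 to 117546008, with 6 and 7. The bounds of clusters follow del-cIDR peaks alone. Just before the second lay full-length peaks from 117525060 to 117525335 in replicate 2 and from 117526008 to 117526341 in replicate 1. The best ranked del-cIDR-only region of the window was a narrow site of 301 bp from 117245333 to 117245633, with ranks of 428 and 970. Its fold enrichment was 10.2 in replicate 1 and 3.80 in replicate 2. Another narrow site, from 117113375 to 117113675, had 10.0-fold and 10.2-fold enrichment, so that its replicates were alike. The region from 117197662 to 117198083 was of the broader form, at 2.91-fold and 2.81-fold. The widest region measured 763 bp, from 117526871 to 117527633, the smallest such value of the 7 windows.

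Both genotypes met at 1 site of the chromosome 10 window. From 117628396 to 117628697 all 4 lists held a peak with nearly the same start. Its enrichment was 2.67-fold and 2.88-fold in full-length lists, at ranks 7073 and 6373, and 5.51-fold and 6.40-fold in del-cIDR lists, at ranks 1852 and 1698. The other 4 full-length peaks overlapped no peak of any other list. They came in 2 loose pairs, each with a peak of replicate 2 followed by one of replicate 1 (starting at 117525060 and 117526008, and at 117569821 and 117571658).

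The proximal window of chromosome 11 was empty of del-cIDR peaks up to 490 kb from its start, apart from 1 region. Clusters then ran from 51491190 to 51548617, with 7 and 9 peaks, and from 51858396 to 51891263, with 6 and 6. No full-length peak fell in either. The second ended in the best ranked region of the window, from 51890870 to 51891263, at ranks 801 and 840 and enriched 7.15-fold and 7.41-fold. The region from 51982629 to 51982946 had 8.26-fold and 10.2-fold enrichment. In the first cluster the region from 51496015 to 51497483 was the widest, at 1469 bp, enriched 2.04-fold and 3.34-fold, and its ranks of 8111 and 1871 were far apart.

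The full-length peaks of that window were weak or apart from those of del-cIDR. Both full-length lists held a peak from 51706259 to 51706660, where neither del-cIDR list did, at 3.43-fold and 5.51-fold but ranks of 18217 and 11399. A replicate 1 peak from 51346216 to 51346512 had 7.12-fold enrichment and no counterpart in any list. The remaining replicate 2 peaks, from 51611990 and from 51985893, fell on sites of both del-cIDR lists.

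The distal window of chromosome 11 had at least 1 del-cIDR peak of each replicate in all 10 bins of 100 kb. Even so, no library had a peak between 115174194 and 115273720 or between 115513475 and 115656346. It had 8 of the 27 clusters, spanning 262 kb. The largest ran from 115456020 to 115513475, with 17 and 10 del-cIDR and 2 and 2 full-length peaks. The best ranked del-cIDR-only region was in it, from 115502527 to 115503693, at ranks 2011 and 1732 and enriched 3.78-fold and 4.37-fold. The widest region of all 7 windows was in it too, from 115476671 to 115479133, where 3 peaks of replicate 1 and 1 of replicate 2 joined into 2463 bp. Directly before it, from 115475098 to 115476556, lay a region of all 4 libraries with 2.44-fold and 2.44-fold enrichment in full-length and 2.22-fold and 3.30-fold in del-cIDR lists.

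Near its far end the window had a cluster from 115940011 to 115973396, with 7 and 9 del-cIDR and 2 full-length peaks, the latter both of replicate 1. The cluster before it, from 115882251 to 115915153, held 2 and 5 del-cIDR peaks and no full-length peak. In that one lay a narrow site from 115895739 to 115896039, at 8.86-fold and 11.7-fold, and a broad region from 115913796 to 115915153. The broad one measured 1358 bp, with 2.65-fold and 2.77-fold enrichment but ranks of 2629 and 2519 beside 2578 and 1954 for the narrow site. Both full-length lists, and no del-cIDR list, held a peak from 115134403 to 115134779, at 4.08-fold and 3.84-fold. This window had 6 of the 13 del-cIDR-only regions of 1 kb or wider and 4 of the 13 narrow sites.

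The best ranked of all 455 members was seen in 1 library. From 115303843 to 115304142 in that window, del-cIDR replicate 1 had a peak of the smallest width of its list at rank 277, with 5.98-fold enrichment and a −log10 q of 519. A second peak of the same library, from 115304642 to 115304942, ranked 1653. Neither overlapped a peak of del-cIDR replicate 2. This pair was chosen for mention after its values were seen.

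On chromosome 15, 56% of the del-cIDR peaks lay in 1 cluster. It ran from 78745978 to 78798925, where 52.9 kb held 16 and 12 del-cIDR and 3 and 1 full-length peaks. Its best ranked del-cIDR-only region, from 78785740 to 78786841, was also the widest of the window, at 1102 bp, with 3.93-fold and 3.45-fold enrichment. The region from 78773010 to 78773651 had 3.38-fold and 3.88-fold. The narrow site from 78066766 to 78067066, far from the cluster, had 8.29-fold and 5.60-fold.

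The members with the highest fold of all windows were chromosome 15 sites that full-length lists shared. At the start of the cluster, from 78745978 to 78746279, all 4 lists held a peak. Its fold was 4.95 and 4.59 in full-length lists and 12.8 and 23.8 in del-cIDR lists, at ranks of 15582 and 9226 against 1212 and 977. A site from 78243015 to 78243317 held a peak in both del-cIDR lists, at 16.6-fold and 15.9-fold, and in full-length replicate 2, at 8.45-fold. Of the 9 full-length peaks of this window, 7 overlapped a del-cIDR peak, where 22.8% of the whole lists did. Folds come from separate lists, so they place each site within its own list and do not measure a change between genotypes.

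The windows next to the 7 were mixed. Of the 14 adjoining 1 Mb windows, 7 had both del-cIDR counts above both full-length counts, where 34.8% of all windows tested did. In 4 both full-length counts lay above both del-cIDR counts, where 24.3% of all windows tested did, and in 3 the genotypes overlapped. With 14 windows, nothing is read from these shares. The neighbours of the chromosome 1 window held few peaks of either genotype, with 7 and 5 full-length and 7 and 4 del-cIDR peaks in the window before it and 3 and 3 against 5 and 4 in the window after. The windows just before those of chromosome 10, of chromosome 11 (proximal) and of chromosome 15 favoured full-length, with 10 and 14 against 4 and 7, 26 and 23 against 13 and 15, and 29 and 36 against 10 and 20 peaks. The window just after the proximal one of chromosome 5 did so too, with 29 and 28 against 9 and 17.

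Some neighbours did lean the same way. After the distal window of chromosome 11 del-cIDR had 24 and 31 peaks and full-length ALKBH5 had 16 and 6, and after that of chromosome 15 the numbers were 35 and 47 against 14 and 17. The window after the proximal one of chromosome 11 held no full-length peak in either list and 4 and 8 del-cIDR peaks. Summed over the 7 chromosomal places, the ratio of del-cIDR to full-length means was 0.731 in the windows before and 1.52 in the windows after. Not all of the 7 stood apart from longer runs. At 2 and 3 windows after the distal one of chromosome 11, del-cIDR had 26 and 32 against 24 and 18 and 12 and 12 against 6 and 6 peaks. At the same places after that of chromosome 15 it had 19 and 13 against 12 and 10 and 31 and 41 against 22 and 17. The windows had been listed as scattered ones, so no trait is read from how they stand beside their neighbours.

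**Figure D5:**
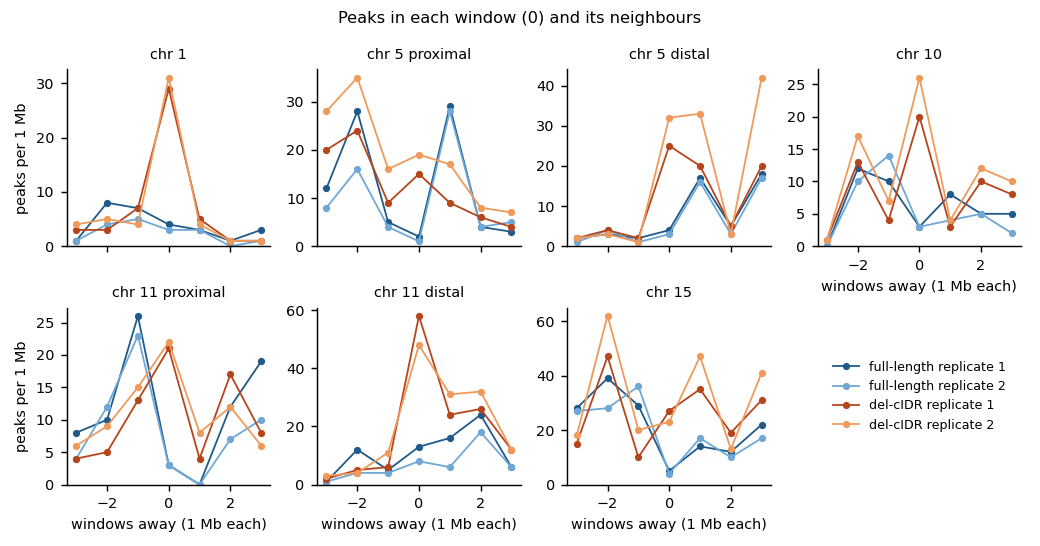
Lines give the number of peaks per 1 Mb (y axis, from 0, scaled per panel) in each of the 7 windows, at 0, and in the 3 windows on each side (x axis), 1 line per library. Del-cIDR lines peak at 0 on chromosomes 1 and 10 and in both windows of chromosome 11, and full-length lines are higher in the window before on chromosomes 10, 11 (proximal) and 15.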

How the data were processed

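The tools named for GRCm39 are MACS2, UMI-tools, STAR and cutadapt, per the submitters' processing notes. Their roles, versions and settings, and whether inputs served as control, are not given in the sources. Besides positions and summits, the deposited columns hold a score, a ratio (the fold enrichment) and −log10 values of p and of q, 1 of each per peak. Each library has its own list. No reads or depth were used, no peak has a strand, and the 4 inputs were not analysed here. Files marked wt are the full-length lists here. Files marked KI were assigned to del-cIDR because no other genotype remains.

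All deposited peaks were counted by summit. The fit over 1 Mb windows used limma 3.58.1 with eBayes trend (R 4.3.3), on each library's summits scaled to 10000, plus 0.5, as log2, in windows with 4 or more summits, with Benjamini-Hochberg adjustment. It was tested on simulated data, as was the merging of peaks. Per window, the regions named were the 3 best ranked of both del-cIDR lists alone, the best ranked of all 4 lists and of both full-length lists alone, and the widest. Others were named after their values were seen. Members and lists were chosen with earlier results of these data known. Gene tables were on another build, GRCm38.p6, so genes, cell type markers and sequence at summits were not analysed here.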

Additional observations from a re-analysis of the deposited data

How the results depend on the processing

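The size of the del-cIDR excess depended on the processing. Its direction stayed, but the windows were picked by this contrast and the alternatives reuse the same peaks, so that carries no support. The ratio of del-cIDR to full-length means, 6.71, fell to 4.13 where peaks had to reach 4-fold enrichment and to 3.88 where those within 5 kb were joined. It was 5.82 to 7.92 with 1 library left out. Over single windows, 55 ratios could be formed under 8 alternatives, all were above 1, and the lowest was 2, in the proximal window of chromosome 11 with peaks of at least 4-fold enrichment. On chromosome 1 no full-length peak reached 4-fold, so no ratio was formed. Regions of both del-cIDR lists alone, 106, fell to 17 with that minimum and were 110 to 181 with 1 library left out, the 2 highest values counting regions of the lone del-cIDR list. The mean of the median del-cIDR widths, 363 bp, was 378 bp with a −log10 q of at least 5, 307 bp with 4-fold enrichment, 369 bp with lists of the same length and 359 to 367 bp with 1 library left out. The share of del-cIDR peaks in runs of 3 or more, 52.6%, was 10.1% with summits within 1 kb and 78.5% within 20 kb. It depends on that distance.

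Over the genome limma called 404 windows for del-cIDR and 323 for full-length. Calls fell to 189 and 160 with 4-fold enrichment, to 229 and 180 with equally long lists, to 100 and 100 with peaks joined, and to 233 and 161 without scaling. They were 105 to 560 and 161 to 389 with 1 library left out, the lone replicate being assumed to vary like the other genotype. Without del-cIDR replicate 1 or 2 they were 117 and 161 or 105 and 168. Centring every library on its median window gave 279 and 334, which turned the order of the 2 directions. With the replicate number as a block they were 531 and 384. Deviations of same-numbered libraries had a correlation of -0.00807 over windows, so the numbers did not pair them. The cause of these shifts was not tested. Read depth behind the lists is unknown, and a peak missing from a list does not show that RNA was unbound.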
